A study of Homo sapiens with 60 samples.

Results

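The genes described here are 6 genes of the zinc and heavy metal response, namely the metallothioneins MT2A, MT1E, MT1X and MT1F, the zinc exporter SLC30A1 and the zinc-sensing transcription factor MTF1. They were chosen by name and matched by symbol to 6 of the 60675 gene identifiers of a count table from A549, an established human lung carcinoma line. Cells were kept for 24 h with a water extract used in Korean herbal medicine or with vehicle, in 60 RNA sequencing libraries. The tested groups were Citri Unshius Pericarpium, Cimicifugae Rhizoma, Bupleuri Radix, Aconiti Lateralis Radix Preparata, Yijung-tang and Banhasasim-tang, called Citri, Cimicifugae, Bupleuri, Aconiti, Yijung and Banhasasim below, each at a low, a medium and a high dose with 3 libraries per dose. Doses were 20, 100 and 500 µg/mL, and for Aconiti 14.4, 72 and 360 µg/mL. Bojungikgi-tang had the same 20, 100 and 500 µg/mL with 1 library per dose. The 3 vehicle libraries received DMSO, which the sample labels give as 0.1% and the design text as 2%. The labels do not say that libraries came from separate cultures, and a p-value here compares a change with the spread of these libraries only, which may be technical.

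Metallothioneins are small cysteine-rich proteins that bind zinc, copper and cadmium in the cytosol. When free zinc or cadmium rises, MTF1 moves to the nucleus, binds metal response elements in DNA and switches on metallothionein genes and SLC30A1, whose protein carries zinc out of the cell. Glucocorticoids and oxidative stress also induce metallothioneins, and the metallothionein genes lie together in a cluster on chromosome 16.

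Gene coordinates are from GENCODE 29 on GRCh38, and promoter coordinates from RefSeq, whose gene starts can differ from them. MT2A (ENSG00000125148) lies at chr16:56608199-56609497, MT1E (ENSG00000169715) at chr16:56625475-56627112, MT1F (ENSG00000198417) at chr16:56657694-56660698 and MT1X (ENSG00000187193) at chr16:56682424-56684196. SLC30A1 (ENSG00000170385) lies at chr1:211571568-211578742 and MTF1 (ENSG00000188786) at chr1:37809567-37859620, both on the minus strand. The promoter sequences are shown because MTF1 acts through metal response elements close to the start of a gene. RefSeq promoters on GRCh38.p14 were matched for 4 of the 6 genes, and the 250 bases before the start are given 5′ to 3′ on the strand of the gene. Capitals mark the core of the metal response element, searched as TGCACNC or TGCGCNC on both strands.
MT2A (chr16:56608334-56608583, plus strand): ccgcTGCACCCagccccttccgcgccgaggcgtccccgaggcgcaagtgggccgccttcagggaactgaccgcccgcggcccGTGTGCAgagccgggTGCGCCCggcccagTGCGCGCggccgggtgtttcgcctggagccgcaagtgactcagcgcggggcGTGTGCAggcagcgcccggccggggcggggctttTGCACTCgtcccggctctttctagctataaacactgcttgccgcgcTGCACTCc
MT1X (chr16:56682220-56682469, plus strand): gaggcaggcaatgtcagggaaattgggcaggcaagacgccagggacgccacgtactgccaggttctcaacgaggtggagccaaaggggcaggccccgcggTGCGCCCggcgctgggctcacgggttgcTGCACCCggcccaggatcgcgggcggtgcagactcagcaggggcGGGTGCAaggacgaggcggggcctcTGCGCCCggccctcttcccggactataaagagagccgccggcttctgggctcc
SLC30A1 (chr1:211579162-211579411, minus strand): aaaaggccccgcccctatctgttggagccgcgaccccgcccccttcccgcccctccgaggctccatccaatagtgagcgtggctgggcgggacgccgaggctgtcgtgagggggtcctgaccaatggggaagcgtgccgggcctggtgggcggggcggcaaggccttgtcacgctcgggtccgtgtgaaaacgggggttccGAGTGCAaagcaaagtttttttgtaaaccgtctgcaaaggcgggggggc
MTF1 (chr1:37859593-37859842, minus strand): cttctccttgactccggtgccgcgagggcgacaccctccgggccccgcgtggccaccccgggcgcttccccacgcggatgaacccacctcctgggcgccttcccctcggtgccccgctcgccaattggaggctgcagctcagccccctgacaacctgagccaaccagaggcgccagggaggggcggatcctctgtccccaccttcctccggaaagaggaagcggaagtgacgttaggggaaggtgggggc
The MT2A window held 7 matches, a number reached by 0.0313% of 35116 promoters of this length, and the MT1X window held 4, reached by 0.37%. The SLC30A1 window held 1 match, where 24.8% of promoters held at least 1, and the MTF1 window held none. Both metallothionein windows also held TATAAA on the strand of the gene, which 6.80% of promoters do. These matches describe the letters in the windows and are not measured binding sites.

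Levels are given as CPM, counts scaled to library size with TMM factors, over libraries with 17793655 to 30188211 total counts (median 25758912). A549 markers were present throughout, and 9 of 10 epithelial and A549 genes had a median over 1 CPM, while none of 5 endothelial genes and 1 of 5 leukocyte genes did. Of 5 fibroblast markers 2 did, and the summed level of that list ranged between 14.1 and 46.0 CPM. One library, Citri medium replicate 1, stood apart in a balance of long against short transcripts. This balance is the mean log2(CPM + 1) of protein-coding genes with transcripts over 6 kb minus that of genes under 1.5 kb, and it was -0.66 in that library and -0.19 to 0.69 in the others. Sample labels begin with a number whose meaning is not stated. Vehicle and Bojungikgi each carried a number of their own, so this prefix and the treatment cannot be told apart in comparisons with them, while Citri and Cimicifugae, Bupleuri and Aconiti, and Yijung and Banhasasim shared prefixes in pairs. The smallest difference between replicates of a group, in chi-square per degree of freedom over genes, was 2.03, so no library was a copy of another of its own group within sampling noise. Libraries of different groups were not compared in this way.

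In vehicle, MT2A was the most abundant member per length with 73.1 CPM per kb of its principal transcript. MT1X had 26.2, SLC30A1 17.6, MTF1 2.65 and MT1F 1.64 CPM per kb. Over all 60 libraries MT2A took 81.5% of the counts of all metallothionein genes and pseudogenes, MT1X 14.3%, MT1A 2.53% and MT1F 1.69%. MT1E, another induced metallothionein, had 2 counts in all, 1 in Yijung high replicate 2 and 1 in Yijung low replicate 2. A count of 0 allows up to 3 counts, or 0.116 CPM in a library of median depth. MT1E did not pass the low-count filter and is not tested, so tests cover 5 of the 6 genes. Metallothionein paralogs are nearly identical, and the counting may have split their reads, so the values of single MT1 genes are uncertain. MT1G, MT1H, MT1M and MT4, other family members, had no count in any library, and MT3 had 30 counts in 24 libraries.

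Of 90 edgeR tests of the 5 genes against vehicle, 2 were called higher and 2 lower, and over all genes 1.57% of such tests were higher and 1.38% lower. Of 90 tests between doses of an extract 2 were called higher, where over all genes 1.42% were higher and 1.38% lower. Counts this small and near the background say nothing of the 5 genes as a group, and the results are those of single genes. Over all 17268 genes tested, between 468 (Banhasasim medium) and 7329 (Aconiti high) had an unadjusted edgeR p under 0.05 against vehicle. Between doses of an extract this number was 309 (Bupleuri medium against low) to 5803 (Aconiti high against low). Tallies of unadjusted p below are to be read beside these numbers.

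**Figure D1:**
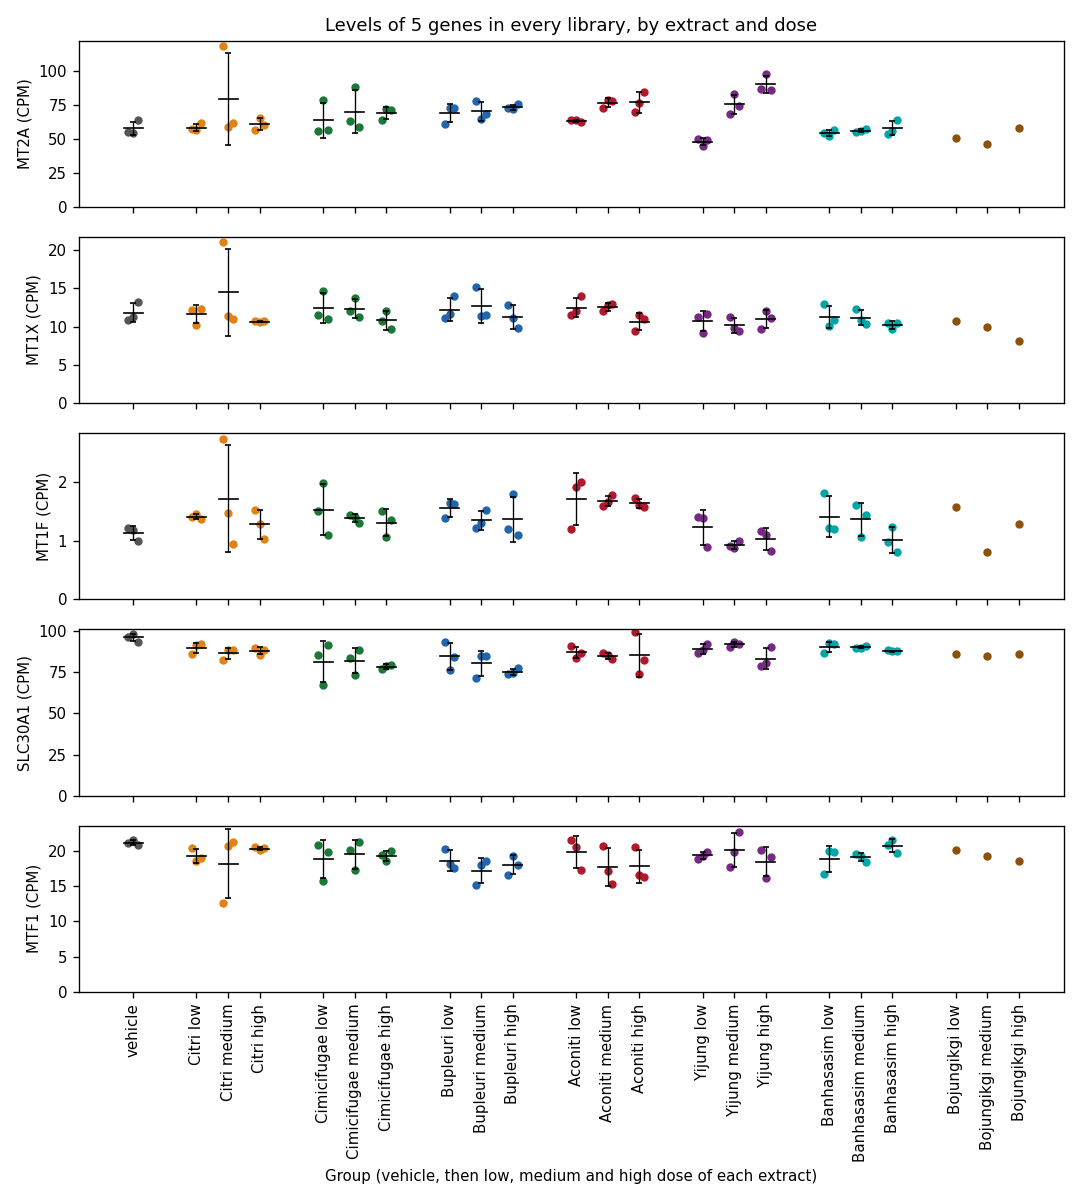
Levels in CPM of MT2A, MT1X, MT1F, SLC30A1 and MTF1 in all 60 libraries, by group; points are libraries, bars the mean and error bars the SD of 3. MT2A is at 85.8 to 97.2 CPM in Yijung high and 54.1 to 63.4 CPM in vehicle, SLC30A1 in vehicle lies above all other groups in its mean, and Citri medium replicate 1 is high for the 3 metallothioneins and low for MTF1.

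MT2A, which held most metallothionein counts of these cells, rose in Yijung high, and its level stood in the order of the 3 Yijung doses. It had 54.9, 54.1 and 63.4 CPM in vehicle, 49.7, 44.8 and 48.7 CPM in Yijung low, 68.4, 82.8 and 74.1 CPM in Yijung medium and 86.6, 97.2 and 85.8 CPM in Yijung high. The Yijung groups did not overlap with each other, and Yijung low lay below and the other doses above every vehicle library. Yijung high against vehicle was a log2 fold of 0.65 ± 0.15 (SE, n = 3 each; edgeR quasi-likelihood test, adjusted p = 0.00315), where 3.76% of the 17268 genes tested rose. The call held without each of the 6 libraries in turn, with adjusted p between 0.00506 and 0.0334. In bulk RNA a change in the share of cells and a change in RNA per cell cannot be told apart.

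Between doses of Yijung, MT2A rose by 0.91 ± 0.15 on the log2 scale for high against low (edgeR, adjusted p = 2.90e-05), where 2.64% of genes rose. Medium against low was 0.65 ± 0.15 (edgeR, adjusted p = 0.00309), where 3.31% rose. Both calls held without each of the 6 libraries in turn. High against medium was 0.26 ± 0.15 with an adjusted p of 0.724 by edgeR, with a 95% interval of -0.03 to 0.55. Yijung low against vehicle was -0.27 ± 0.15 with an adjusted p of 1 by edgeR, and it did not pass. Yijung medium against vehicle was 0.39 ± 0.15 (edgeR, adjusted p = 0.114) and did not pass, although it did with the balance added as a covariate (0.34, adjusted p = 0.00566), with the 6 libraries alone (adjusted p = 0.0340) and in the shared edgeR fit less Citri medium replicate 1 (adjusted p = 0.0136). Over its alternatives that adjusted p ranged between 0.00566 and 0.132. Here and below, such ranges do not include the refits that left out each library in turn.

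In Banhasasim, the mixture that shares a label prefix with Yijung, MT2A lay near vehicle at each dose. MT2A had 54.1, 51.8 and 56.6 CPM in Banhasasim low, 54.7, 55.7 and 56.9 CPM in medium and 53.8, 55.5 and 63.7 CPM in high. Each of these groups overlapped vehicle. At the high dose the log2 fold against vehicle was 0.01 with a 95% interval of -0.29 to 0.30. Yijung high against Banhasasim high was 0.64 ± 0.15 for MT2A (edgeR, adjusted p = 0.00519), where 2.60% of genes were higher, and the libraries did not overlap. That call ended without Yijung high replicate 2 (log2 fold 0.57, edgeR adjusted p = 0.0561).

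The change of MT2A between the high and low dose was larger for Yijung than for each of the other 5 extracts in a test of the difference, added after these values were seen. The difference of the log2 changes was between 0.64 and 0.86, with edgeR adjusted p between 0.0177 and 0.0483. In these 5 tests the share of all genes with a positive difference past the threshold was 0.973% against Citri and 1.80% against Cimicifugae, 1.01% against Bupleuri, 5.06% against Aconiti and 0.828% against Banhasasim. All 5 use the same 6 Yijung libraries and are not independent. None of the 5 calls held without every one of its 12 libraries in turn, and the one against Aconiti held without none of them.

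**Figure D2:**
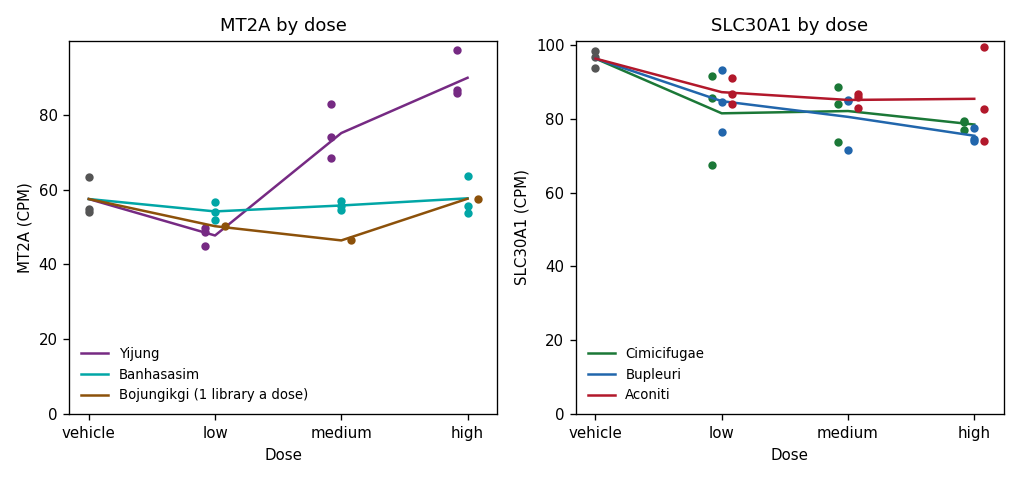
MT2A in CPM (left) and SLC30A1 in CPM (right) by dose, with vehicle at the low end and equal spacing between doses; points are libraries and lines join group means. MT2A means are 47.7, 75.1 and 89.9 CPM over the Yijung doses and 54.2, 55.8 and 57.7 CPM over the Banhasasim doses, and SLC30A1 means fall to 75.4 CPM in Bupleuri high and 78.4 CPM in Cimicifugae high, against 96.2 CPM in vehicle.

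MT2A also rose in Aconiti high, the top dose of the processed aconite root. It had 63.4, 63.8 and 62.2 CPM in Aconiti low, 72.5, 78.4 and 77.9 CPM in Aconiti medium and 69.4, 75.8 and 84.5 CPM in Aconiti high, beside the vehicle values above. The medium and high groups lay above every vehicle library, while the low group overlapped vehicle. Aconiti high against vehicle was 0.42 ± 0.15 on the log2 scale (edgeR, adjusted p = 0.0296), and 17.0% of all genes rose in that comparison. The call ended without vehicle replicate 1 (edgeR adjusted p = 0.0975), vehicle replicate 2 (0.104), Aconiti high replicate 2 (0.0588) or Aconiti high replicate 3 (0.118). It also ended once the length balance was a covariate, with a log2 fold of 0.18 (edgeR, adjusted p = 0.126; range over the alternatives 0.00170 to 0.126).

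Aconiti medium against vehicle was nearly as large, 0.41 ± 0.15, but did not pass (edgeR, adjusted p = 0.166). It passed with the 6 libraries alone (adjusted p = 0.00868) and in the shared edgeR fit less Citri medium replicate 1 (adjusted p = 0.0221), over a range of 0.00868 to 0.249 for all alternatives. Beside these values, mitochondrially encoded genes took 16.5% to 18.95% of counts in Aconiti high and 13.5% to 15.2% in Aconiti medium, against 7.91% to 8.54% in vehicle. With those genes removed before scaling, MT2A in Aconiti high against vehicle was 0.43 (edgeR, adjusted p = 0.0273). The part of their counts in the MT2A result was not tested beyond this.

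In the other single herbs no MT2A test against vehicle passed, by edgeR or by DESeq2. Bupleuri high had 72.2, 71.6 and 75.3 CPM, against 54.9, 54.1 and 63.4 CPM in vehicle, with a log2 fold of 0.35 ± 0.15 (edgeR, adjusted p = 0.384). Cimicifugae high had 63.5, 71.8 and 70.7 CPM and a log2 fold of 0.26 ± 0.15 (edgeR, adjusted p = 0.535). Both groups lay above every vehicle library, and with the 6 libraries alone both passed, with edgeR adjusted p of 0.00650 for Bupleuri high and 0.0157 for Cimicifugae high; their alternatives reached up to 0.719 and 0.889. In Citri medium the 3 libraries had 118, 58.4 and 61.4 CPM, so that 1 library, replicate 1, made the mean of 79.4 CPM. The log2 fold of Citri medium against vehicle was 0.47 (edgeR, adjusted p = 0.146) with replicate 1 and 0.05 (adjusted p = 1) without it, and that of Citri high against Citri medium was -0.39 with replicate 1 and 0.02 without it.

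In the order of MT2A group means, Yijung high led with 89.9 CPM and Yijung low came last with 47.7 CPM, with vehicle at rank 16 of the 19 groups. Neighbours in that order overlapped in every case except the last step, where Yijung low lay below Banhasasim low. The overlap of Yijung high with the group after it, Citri medium, came from Citri medium replicate 1. Without that library Citri medium had rank 13 with 59.9 CPM, and Yijung high, from 85.8 CPM, lay above the next group, Aconiti high, up to 84.5 CPM. Over the 18 tests against vehicle MT2A passed in 2, both higher, and 6 had an unadjusted edgeR p under 0.05; DESeq2 also called 2.

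MT1X, a metallothionein of the same cluster, passed in no extract. It had 9.71, 12.1 and 11.1 CPM in Yijung high and 9.38, 11.5 and 11.0 CPM in Aconiti high, against 10.9, 11.3 and 13.2 CPM in vehicle. Each of these groups overlapped vehicle. MT1X passed in none of the 18 tests against vehicle by edgeR or by DESeq2, and none had an unadjusted edgeR p under 0.05, with log2 folds between -0.21 and 0.30. The highest, in Citri medium, was -0.07 without Citri medium replicate 1. Given the length balance as covariate, MT1X fell in Aconiti high against vehicle (log2 fold -0.42, edgeR adjusted p = 0.000131, range over the alternatives 0.000131 to 0.645), against -0.14 ± 0.16 without the covariate. It also fell with that covariate in Yijung medium against vehicle (-0.27, edgeR adjusted p = 0.0169, range 0.0169 to 0.780).

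MT1F, a low-abundance metallothionein, ranged between 0.802 and 2.73 CPM and had 15 to 66 counts in a library. It averaged 1.63 ± 0.0753 CPM in Aconiti high, 1.03 ± 0.182 CPM in Yijung high and 1.13 ± 0.120 CPM in vehicle (SD, n = 3 each). None of its 18 tests against vehicle passed by edgeR or DESeq2, while 3 had an unadjusted edgeR p under 0.05. At this depth its changes are poorly resolved. MT1A, outside the 6 genes but the one other metallothionein past the filter, passed in no test either, with 1 of 18 unadjusted edgeR p-values against vehicle under 0.05 and no call by DESeq2.

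Summed over all metallothionein genes and pseudogenes, a value that does not depend on how paralogs share reads, the level was 104 ± 7.35 CPM in Yijung high, 61.9 ± 3.71 CPM in Yijung low and 72.3 ± 6.43 CPM in vehicle (SD, n = 3 each). The sum was 91.2 ± 8.61 CPM in Aconiti high and 92.8 ± 4.00 CPM in Aconiti medium. As a log2 difference from vehicle these were 0.33 and 0.36, and on CPM from total counts 0.18 and 0.24. MT2A made up 85.2% to 87.1% of the sum in Yijung high and 76.7% to 77.7% in Yijung low, against 79.1% to 79.8% in vehicle. Its share thus differed between Yijung high and vehicle without overlap, but this was not particular to Yijung. The share also lay above every vehicle library in Aconiti high (82.6% to 84.9%), Citri high (80.0% to 82.8%), Banhasasim high (80.2% to 82.6%) and further groups. It overlapped vehicle in others, such as Citri low (78.5% to 81.2%) and Banhasasim low (76.3% to 80.6%). No test was made on the sum or the share.

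SLC30A1, the plasma membrane zinc exporter and itself an MTF1 target, fell with the high doses of 2 single herbs. It had 74.0, 74.6 and 77.5 CPM in Bupleuri high and 76.8, 79.1 and 79.3 CPM in Cimicifugae high, against 96.7, 98.3 and 93.7 CPM in vehicle. Neither group overlapped vehicle. Bupleuri high against vehicle was -0.35 ± 0.08 on the log2 scale (edgeR, adjusted p = 0.0196), where 0.261% of genes fell. Cimicifugae high against vehicle was -0.30 ± 0.08 (edgeR, adjusted p = 0.0423), where 0.880% of genes fell.

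Both SLC30A1 calls were near the threshold. That of Bupleuri high held only without vehicle replicate 3 (edgeR adjusted p = 0.0457) and ended without vehicle replicate 1 (0.0961), vehicle replicate 2 (0.111) or Bupleuri high replicate 1 (0.130), 2 (0.0867) or 3 (0.0532). That of Cimicifugae high ended without any 1 of its 6 libraries (edgeR adjusted p between 0.0817 and 0.181) and without the low-count filter (0.106; range over the alternatives 0.000229 to 0.106). In every such refit SLC30A1 stayed lower, by 0.28 to 0.37 on the log2 scale. Both calls also held in the fit that included the length balance, at -0.31 for Bupleuri high and -0.28 for Cimicifugae high.

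The vehicle group headed the order of SLC30A1 levels, with a mean of 96.2 ± 2.30 CPM, and did not overlap the group after it, Yijung medium with 92.0 CPM. All later neighbours in the order of levels overlapped, down to Bupleuri high with 75.4 ± 1.87 CPM. Of the 18 SLC30A1 tests against vehicle 2 passed by edgeR and 2 by DESeq2, and 9 had an unadjusted edgeR p under 0.05. Aconiti high, with 99.5, 74.0 and 82.6 CPM, was the one extract group that reached the vehicle range, through replicate 1. Without that library Aconiti high fell against vehicle (log2 fold -0.29, edgeR adjusted p = 0.00514), and with it the test did not pass (-0.17 ± 0.08, adjusted p = 0.0968). Yijung high, with 83.4 ± 6.34 CPM and a log2 fold of -0.21 ± 0.08 (edgeR, adjusted p = 0.125), passed in the fit that included the length balance (-0.16, edgeR adjusted p = 0.0460, range over the alternatives 0.0460 to 0.251). All these comparisons share the same 3 vehicle libraries, whose label prefix and treatment cannot be told apart. Within an extract, no SLC30A1 test between doses passed by edgeR or DESeq2, and 1 of 18 had an unadjusted edgeR p under 0.05.

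No SLC30A1 test between high doses that share a prefix passed, and 2 of the 3 had an unadjusted edgeR p under 0.05, while DESeq2 called none. Cimicifugae high against Citri high was -0.17 ± 0.08 (edgeR, adjusted p = 0.715; 95% interval -0.33 to -0.01), and with the 6 libraries alone it passed (adjusted p = 0.00483, range over the alternatives 0.00483 to 1). Aconiti high at 360 µg/mL against Bupleuri high at 500 µg/mL was 0.18 ± 0.08 (edgeR, adjusted p = 0.111; 95% interval 0.02 to 0.34). It passed in the fit that included the length balance (0.24, edgeR adjusted p = 0.000724, range 0.000724 to 0.256) and without Aconiti high replicate 2 (0.30, adjusted p = 0.0106).

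**Figure D3:**
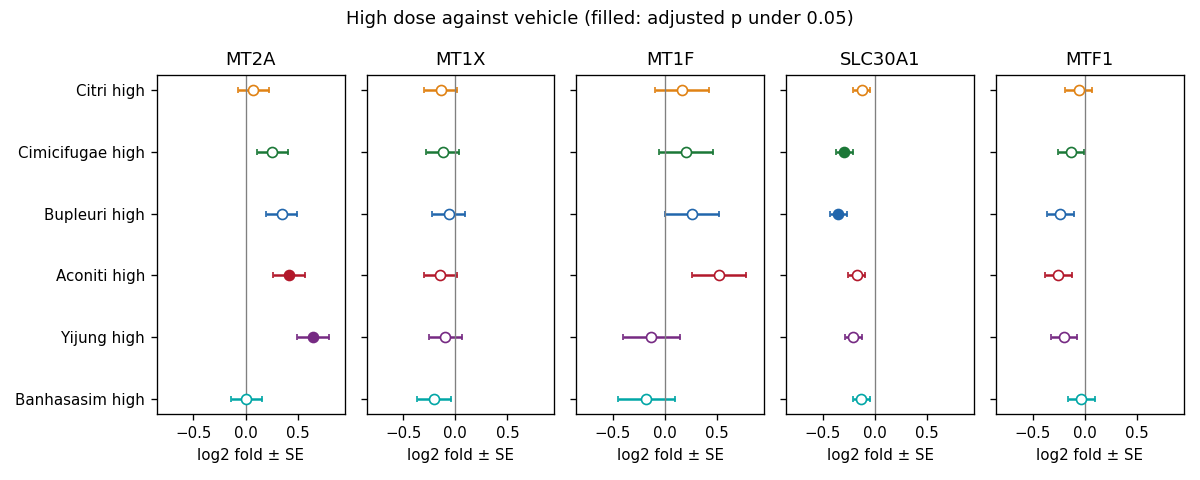
Log2 fold with its SE of each of 5 genes in the high dose of 6 extracts against vehicle, with filled points past the edgeR threshold of 0.05. MT2A passes in Yijung high (0.65) and Aconiti high (0.42), and SLC30A1 in Bupleuri high (-0.35) and Cimicifugae high (-0.30); MT1X, MT1F and MTF1 pass in no extract.

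MTF1, the factor that senses zinc, passed in no test by edgeR or DESeq2. It had 20.1, 16.1 and 19.1 CPM in Yijung high and 20.4, 16.5 and 16.3 CPM in Aconiti high, against 21.1, 21.5 and 20.8 CPM in vehicle. Its log2 folds against vehicle lay between -0.30 and -0.03 over the 18 tests, of which 2 had an unadjusted edgeR p under 0.05. All 18 extract groups thus had a mean below vehicle, and 13 of them lay below every vehicle library. Vehicle headed the order of MTF1 means but overlapped the next group, Banhasasim high. As for SLC30A1, these comparisons share the same 3 vehicle libraries, whose label prefix and treatment cannot be told apart. Aconiti high against vehicle was -0.25 (edgeR, adjusted p = 0.124), passed without Aconiti high replicate 1 (-0.36, adjusted p = 0.0397) and was -0.02 in the fit that included the length balance (adjusted p = 0.848, range over the alternatives 0.0668 to 0.848).

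All 5 genes moved with the balance of long against short transcripts over the 57 libraries in groups of 3. MTF1, with a principal transcript of 7972 bases, rose with the balance (Pearson r = 0.89, Spearman rho = 0.71), as did SLC30A1 with 5474 bases (r = 0.59, rho = 0.70). MT2A with 786 bases fell (r = -0.65, rho = -0.58), as did MT1X with 450 bases (r = -0.78, rho = -0.68) and MT1F with 690 bases (r = -0.57, rho = -0.45). The permutation p for r was 1e-05, the smallest that 100000 permutations can give, for MT2A, MT1X and MTF1 and 2e-05 for MT1F and SLC30A1 (1.67e-05 and 2e-05 after Benjamini-Hochberg adjustment over the 5 relations). The largest p for rho was 0.00054, for MT1F. These permutations shuffled all 57 libraries freely and took no account of shared groups or prefixes. With means of each prefix subtracted and libraries shuffled within their prefix, a test added after the data were seen, r was -0.60 for MT2A, -0.78 for MT1X, -0.48 for MT1F, 0.52 for SLC30A1 and 0.89 for MTF1, with permutation p between 1e-05 and 0.00198 (2.5e-05 to 0.00198 after Benjamini-Hochberg adjustment). Without the 2 most distant libraries, Citri medium replicate 1 and Cimicifugae low replicate 2, r was -0.53 for MT2A, -0.64 for MT1X, -0.38 for MT1F, 0.62 for SLC30A1 and 0.84 for MTF1.

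Within the 3 prefixes, each of 18 libraries, r for MT2A was -0.90 in the set of Citri and Cimicifugae, -0.56 in that of Bupleuri and Aconiti and -0.31 in that of Yijung and Banhasasim. For MTF1 it was 0.95, 0.86 and 0.81 in the same order of sets. For SLC30A1 it was 0.52, 0.55 and 0.55. For MT1X it was -0.95, -0.54 and -0.59, and for MT1F -0.81, -0.18 and -0.19. The vehicle prefix, with 3 libraries, was too small for a value. The balance was 0.05 to 0.60 in Yijung high and -0.09 to 0.53 in Aconiti high, against 0.43 to 0.64 in vehicle. With the balance as a covariate, MT2A in Yijung high was 0.54 ± 0.09 above vehicle on the log2 scale (edgeR, adjusted p = 1.32e-05, range over the alternatives 1.32e-05 to 0.00419). In the refits that left out each library in turn, without this covariate, the edgeR adjusted p reached 0.0334.

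**Figure D4:**
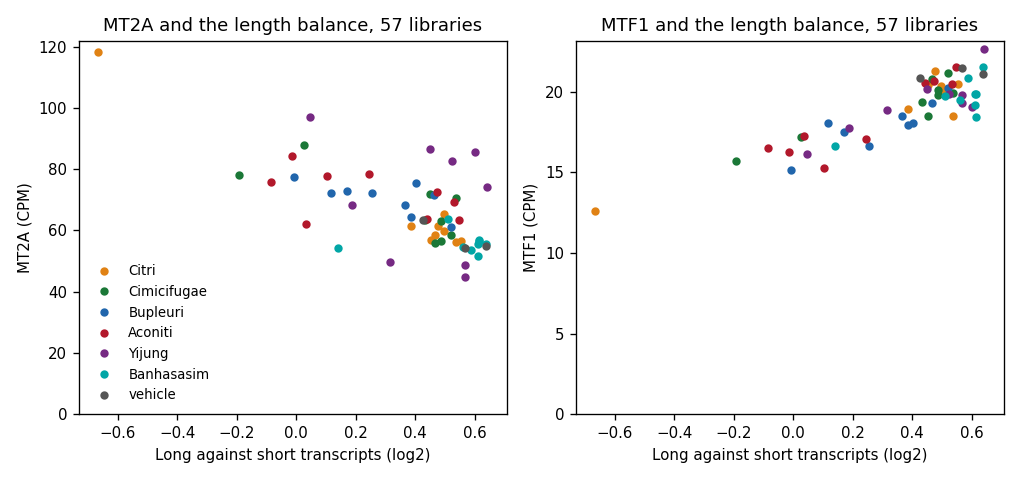
MT2A (left) and MTF1 (right) in CPM against the balance of transcripts over 6 kb and under 1.5 kb (difference of mean log2(CPM + 1)) in 57 libraries, coloured by extract. MT2A falls (r = -0.65) and MTF1 rises (r = 0.89) along the axis; the point at -0.66 is Citri medium replicate 1, and the Yijung libraries scatter above and below the others.

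Over 19 group means, the genes most like MT2A among 10730 genes with at least 5 CPM were ECHDC1 (r = 0.89), DCTD (0.88), CMTM3 (0.87), FXYD5 (0.85) and DRAP1 (0.84). The most opposite were DUSP16 (-0.89), TCP11L1 (-0.86) and COL11A1 (-0.86). For MTF1 the most alike were TET3 (r = 0.87), ZNF106 (0.86), NHLRC2 (0.84), TULP4 (0.83) and USP13 (0.82), with principal transcripts of 7347 to 11388 bases, and the most opposite were P3H4 (-0.88), TRAPPC5 (-0.87) and SIGIRR (-0.87). Over the 18 groups other than Citri medium, r of these named genes was 0.83 to 0.90 and -0.89 to -0.86 with MT2A, and 0.81 to 0.86 and -0.88 to -0.86 with MTF1. Among the 5 genes themselves, MT2A had r = 0.19 with MT1X, 0.08 with MT1F, -0.50 with SLC30A1 and -0.52 with MTF1 over all 19 groups. Without Citri medium these were 0.09, 0.03, -0.52 and -0.49 in the same order. MT1X had r = 0.67 with MT1F, -0.19 with SLC30A1 and -0.46 with MTF1, and 0.65, -0.25 and -0.38 without Citri medium. MT1F had r = -0.27 with SLC30A1 and -0.56 with MTF1, and -0.29 and -0.52 without Citri medium. SLC30A1 and MTF1 had r = 0.58, and 0.61 without it. These are descriptions over groups that share libraries' depth and length balance.

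Among the other zinc transporters, the SLC39 importers moved with Aconiti high in both directions. Of 14 importers 11 were tested, and 3 rose and 4 fell in Aconiti high against vehicle, where 17.0% of all genes rose and 15.7% fell. SLC39A10, a plasma membrane zinc importer, fell to 36.9 ± 7.99 CPM in Aconiti high, against 75.4 ± 4.25 CPM in vehicle (log2 fold -1.03 ± 0.18, edgeR adjusted p = 1.13e-05). SLC39A14, which carries zinc, iron and manganese, rose to 264 ± 25.9 CPM in Aconiti high, against 195 ± 5.76 CPM in vehicle (0.44 ± 0.08, edgeR adjusted p = 5.31e-05). SLC39A8, a carrier of zinc, manganese and cadmium, fell to 26.9 ± 2.32 CPM, against 33.6 ± 1.60 CPM in vehicle (-0.32 ± 0.06, edgeR adjusted p = 9.49e-05), and SLC39A9, a zinc carrier of the Golgi, fell to 93.7 ± 4.70 CPM, against 122 ± 2.69 CPM (-0.38 ± 0.08, edgeR adjusted p = 0.000122). These 4 calls held without each of the 6 libraries in turn.

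The median log2 fold of the importer list in Aconiti high was -0.05, against -0.005 over all genes tested. The other 3 calls, named after their values were seen, were SLC39A4 (24.7 ± 3.91 CPM in Aconiti high, against 14.9 ± 0.665 CPM in vehicle), SLC39A13 and SLC39A6. Without Aconiti high replicate 2 the calls of SLC39A13 (edgeR adjusted p = 0.0625) and SLC39A6 (0.129) ended, and that of SLC39A6 ended with the 6 libraries alone (0.0527). In Cimicifugae high, where 0.880% of all genes fell, 1 importer, SLC39A8, fell to 28.5 ± 0.609 CPM, against 33.6 ± 1.60 CPM in vehicle (-0.24 ± 0.06, edgeR adjusted p = 0.0316). That call ended without vehicle replicate 1 (0.108) or 3 (0.183), without Cimicifugae high replicate 1 (0.0733), 2 (0.138) or 3 (0.122) and without the low-count filter (0.248). No importer passed in Yijung high. The SLC30 exporters beside SLC30A1 did not pass in any of 108 tests against vehicle (6 of 10 genes, edgeR), of which 10 had an unadjusted p under 0.05. None was called by DESeq2. Their median log2 fold was -0.04 in Aconiti high and -0.07 in Yijung high, against -0.005 and 0.002 over all genes.

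**Figure D5:**
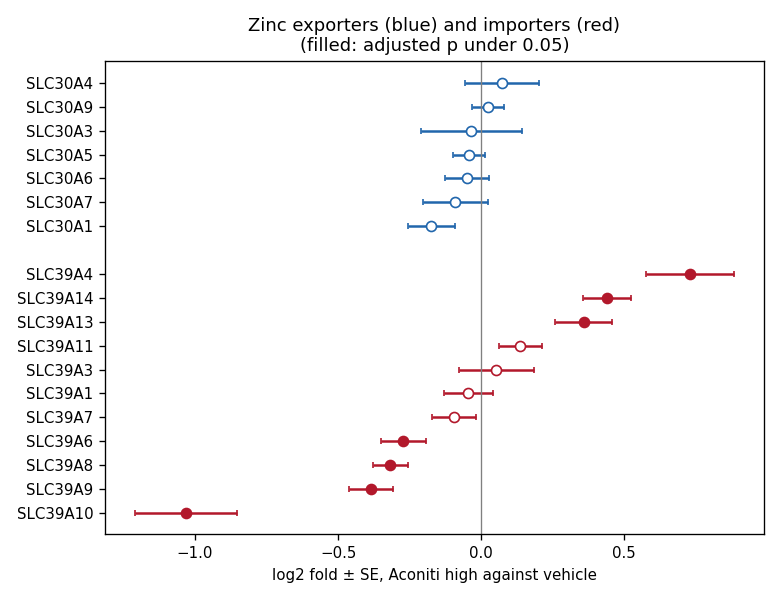
Log2 fold with its SE in Aconiti high against vehicle for the tested zinc exporters (SLC30 family, blue) and importers (SLC39 family, red), with filled points past the edgeR threshold of 0.05. SLC39A4, SLC39A14 and SLC39A13 lie to the right and SLC39A10, at -1.03, lies farthest to the left; no exporter is filled.

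Genes that cadmium, zinc and protein damage are known to induce moved in both directions. In Aconiti high 1 of 12 rose and 7 fell, where 17.0% of all genes rose and 15.7% fell, with a list median of -0.28, against -0.005 over all genes. The riser, named after its values were seen, was HMOX1, haem oxygenase, at 297 ± 29.7 CPM, against 167 ± 8.90 CPM in vehicle (log2 fold 0.84 ± 0.09, edgeR adjusted p = 1.37e-10). Of the 7 that fell, TXNRD1, thioredoxin reductase, lost its call without Aconiti high replicate 2 (edgeR adjusted p = 0.113) and with the 6 libraries alone (0.0623). HSPA1A and HSPA1B, heat shock proteins whose near-identical genes may share reads, fell to 123 ± 13.3 and 89.1 ± 12.9 CPM, against 360 ± 21.8 and 223 ± 12.6 CPM in vehicle (log2 folds -1.55 and -1.32, edgeR adjusted p = 1.57e-16 and 3.25e-16). HSPH1, a chaperone of the same response, fell to 130 ± 15.1 CPM, against 247 ± 5.90 CPM, and BAG3, their co-chaperone, to 67.0 ± 0.819 CPM, against 100 ± 7.56 CPM in vehicle. In Cimicifugae high 2 of 12 rose and none fell, where 1.08% of all genes rose, and HMOX1 rose to 282 ± 14.6 CPM, against 167 ± 8.90 CPM in vehicle (0.76 ± 0.09, edgeR adjusted p = 5.29e-08). The other, GCLM, a subunit of the enzyme that starts glutathione synthesis, lost its call in 4 refits that left out a library (edgeR adjusted p 0.0532 to 0.0842) and with no filter (0.208). In Yijung high 1 rose and 2 fell, where 3.76% of all genes rose and 3.33% fell; HSPA1A fell to 254 ± 35.7 CPM, against 360 ± 21.8 CPM in vehicle (-0.50 ± 0.10, edgeR adjusted p = 0.000332). The other calls there, BAG3 higher and HSPA1B lower, ended with the 6 libraries alone (edgeR adjusted p = 0.223 and 0.0742). That of BAG3 also ended with no filter (0.271) and without vehicle replicate 1 (0.0919), vehicle replicate 2 (0.0739) or Yijung high replicate 1 (0.0630), and that of HSPA1B without vehicle replicate 3 (0.0735) or Yijung high replicate 3 (0.103).

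Glucocorticoid-induced genes, listed because metallothioneins are also glucocorticoid targets, moved in both directions. In Yijung high 4 of 14 rose and 3 fell, where 3.76% of all genes rose and 3.33% fell, with a list median of 0.12, against 0.002 over all genes. PDK4, a kinase that restrains pyruvate oxidation, rose to 34.0 ± 0.858 CPM in Yijung high, against 22.3 ± 1.41 CPM in vehicle (0.61 ± 0.10, edgeR adjusted p = 2.78e-05). TSC22D3, the glucocorticoid-induced leucine zipper, rose to 13.2 ± 0.597 CPM, against 10.0 ± 0.237 CPM (0.39 ± 0.09, edgeR adjusted p = 0.00420), while SGK1, a kinase of salt transport, fell to 38.9 ± 1.31 CPM, against 50.4 ± 1.24 CPM in vehicle (-0.37 ± 0.06, edgeR adjusted p = 4.84e-06). Among the other Yijung high calls, those of NFKBIA (edgeR adjusted p = 0.129), TFCP2L1 (0.115) and PER1 (0.169) ended without Yijung high replicate 2. In Aconiti high 5 of 14 rose and 3 fell, where 17.0% of all genes rose and 15.7% fell, with a median of 0.06, and TSC22D3 rose to 41.9 ± 2.07 CPM, against 10.0 ± 0.237 CPM in vehicle (2.06 ± 0.09, edgeR adjusted p = 4.00e-22). The part of any of these lists in the MT2A result was not tested.

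Of 11 copper genes 3 fell and none rose in Aconiti high, where 15.7% of all genes fell and 17.0% rose, with a list median of -0.18, against -0.005 over all genes. Among them SCO1, a copper chaperone of the respiratory chain, fell to 94.5 ± 6.51 CPM, against 109 ± 5.34 CPM in vehicle (-0.21 ± 0.04, edgeR adjusted p = 0.000248), a call that ended with the 6 libraries alone (-0.20, adjusted p = 0.0909). ATP7A, a copper pump, fell to 16.1 ± 3.60 CPM, against 24.8 ± 1.79 CPM in vehicle (edgeR adjusted p = 0.00980), a call that ended without Aconiti high replicate 2 (0.106). The third, SLC31A1, a copper importer, lost its call with the length balance included (-0.11, edgeR adjusted p = 0.0682), with the 6 libraries alone (0.0845) and without vehicle replicate 1 (0.131) or Aconiti high replicate 2 (0.164) or 3 (0.0725). Of 9 iron genes tested 1 rose and 4 fell in Aconiti high, where 17.0% of all genes rose and 15.7% fell, and FTH1, the ferritin heavy chain, rose to 5551 ± 802 CPM, against 3333 ± 518 CPM in vehicle (0.74 ± 0.13, edgeR adjusted p = 9.70e-06). Of the 4 that fell, NCOA4 went to 122 ± 5.05 CPM, against 154 ± 0.739 CPM in vehicle (-0.33 ± 0.07, edgeR adjusted p = 0.000135). ACO1 fell to 48.8 ± 0.307 CPM, against 57.7 ± 1.59 CPM in vehicle (-0.24 ± 0.06, edgeR adjusted p = 0.00312). The calls of NCOA4 and ACO1 held without each of the 6 libraries in turn. IREB2, a sensor of iron, lost its call without Aconiti high replicate 2 (edgeR adjusted p = 0.0536). SLC40A1, which exports iron, lost it with no filter (0.0887), with the length balance included (0.0991), with the 6 libraries alone (0.124) and without any 1 vehicle library or Aconiti high replicate 2 (0.0576 to 0.383). In Yijung high, where 3.33% of all genes fell, 1 iron gene fell, SLC40A1, to 15.7 ± 0.815 CPM, against 21.0 ± 0.596 CPM in vehicle (-0.42 ± 0.09, edgeR adjusted p = 0.000876).

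Bojungikgi-tang, with 1 library per dose and no test, had MT2A at 50.2 CPM (95% Poisson interval 47.6 to 53.0, counting error only) at the low dose, 46.4 (43.5 to 49.5) at the medium and 57.6 (54.6 to 60.7) at the high dose, against 54.1 to 63.4 CPM in the vehicle libraries. SLC30A1 had 86.3, 84.8 and 86.2 CPM at the low, medium and high dose, against 93.7 to 98.3 CPM in vehicle. The low and medium libraries lay below vehicle for MT2A, and all 3 did for SLC30A1. MT1X had 10.8, 9.99 and 8.15 CPM at the low, medium and high dose, against 10.9 to 13.2 CPM in vehicle. MTF1 had 20.1, 19.3 and 18.5 CPM in the same order, against 20.8 to 21.5 CPM in vehicle. For MT1X and MTF1, too, all 3 libraries lay below vehicle.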

How the data were processed

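RNA was sequenced from A549 cells after 24 h, per the labels, as 100 bp paired-end reads of directional libraries. The submitters' processing notes name RSEM 1.3.3, STAR 2.7.3a, FastQC 0.11.9 and Trim Galore 0.6.5, with GRCh38 (hg38); the annotation release and strand setting are not given in the sources used here, so overlapping and antisense genes are uncertain. The deposited table holds expected counts per gene, not normalized by the authors, with 9.37% of the values used not whole. Of its 269 sample columns, 60 matched labels of this series and 209 were not used. Of 60675 identifiers 57055 were in GENCODE 29 and 56558 had a symbol.

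Counts were rounded and fitted with edgeR 4.0.16 (R 4.3.3) as 1 quasi-likelihood model of 57 libraries in 19 groups, scaled by TMM. The filterByExpr step, by group, retained 17268 genes, and the model had 38 residual degrees of freedom. P-values were Benjamini-Hochberg adjusted over all genes in each comparison, at a threshold of 0.05, and the SE is the log2 fold over the square root of F. Comparisons were each dose against vehicle, one dose against another within an extract, and pairs of high doses with a common prefix; the difference of dose changes was added after the data were seen. Alternatives were RLE size factors, DESeq2 1.42.0, no filter, a replicate block, the 6 libraries compared alone (12 for differences of dose changes), the length balance as a covariate, removed mitochondrial genes, a fit less Citri medium replicate 1 and a robust fit. Each library was also left out in turn, and ranges over the alternatives do not include those refits. In the check of replicate numbers, 3 of 39 comparisons had every pair of same-numbered libraries correlated above 0.1 (Cimicifugae medium against low, Bupleuri high against medium and Yijung medium against low), and no label says what a number shares. The procedure was tested on simulated data.

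The 6 genes and the lists were chosen with earlier results of these data known. Genes of a list are named where they pass against vehicle, at most 4 per list and comparison by smallest p. Genes alike are the 5 highest and 3 lowest correlations over group means, among genes outside the lists.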

Additional observations from a re-analysis of the deposited data

Results flagged for a closer look

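Each value here concerns MT2A in Yijung and was picked out because 2 groups differed under a test of the difference itself. Yijung high against Banhasasim high was 0.64 on the log2 scale, and the change between high and low dose in Yijung exceeded that of Citri by 0.86 ± 0.21, of Cimicifugae by 0.80 ± 0.21, of Bupleuri by 0.82 ± 0.21, of Aconiti by 0.64 ± 0.21 and of Banhasasim by 0.82 ± 0.21 (SE; edgeR adjusted p = 0.0177, 0.0207, 0.0242, 0.0483 and 0.0320). The first of these ended without Yijung high replicate 2 (adjusted p = 0.0561).

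Of the 12 refits that leave out 1 library, the difference from Citri held in 8 and ended without Citri high replicate 1, Citri low replicate 3, Yijung high replicate 2 or Yijung low replicate 2 (edgeR adjusted p 0.0592 to 0.0782). The difference from Cimicifugae held in 8 and ended without Cimicifugae high replicate 1, Cimicifugae low replicate 2, Yijung high replicate 2 or Yijung low replicate 2 (0.0664 to 0.165). That from Bupleuri held in 6 and ended without Bupleuri high replicate 1 or 2, Bupleuri low replicate 2 or 3, Yijung high replicate 2 or Yijung low replicate 2 (0.0603 to 0.0944). That from Banhasasim held in 3, namely without Yijung high replicate 3, Banhasasim low replicate 2 or Banhasasim high replicate 3, and otherwise reached 0.0554 to 0.133. That from Aconiti held in none (0.0564 to 0.132), nor with RLE size factors, no low-count filter, the replicate block or mitochondrial genes removed (0.0542, 0.0560, 0.0548 and 0.0606). The log2 difference was at least 0.56 in every one of these refits.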

How the results depend on the processing

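Of 90 tests of the 5 genes against vehicle, 2 were higher and 2 lower. The higher count was 4 in the shared fit less Citri medium replicate 1, 6 with the 6 libraries alone, and 1 to 4 when each library was left out. The lower count was 1 without the low-count filter, 5 given the length balance as covariate, and 0 to 4 when each library was left out. With the 6 libraries alone, SLC30A1 in Aconiti medium against vehicle also passed as lower (-0.19, edgeR adjusted p = 0.0372). In the main setting it was -0.18 (edgeR adjusted p = 0.311). Between doses, 2 were higher in the main setting and when each library was left out in turn, and the lower count of 0 became 2 given that covariate and 0 to 2 when each library was left out. In the shared fit less Citri medium replicate 1, MT2A in Aconiti high against Aconiti low also passed (0.29, edgeR adjusted p = 0.0376). In the main setting it was 0.28 (edgeR adjusted p = 0.188). Between high doses sharing a prefix, the higher count of 1 became 2 given that covariate and with the 6 libraries alone, and 0 to 2 when each library was left out; the lower count of 0 became 1 in each of those 2 settings and stayed 0 in the refits that left out a library.

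On total-count CPM the metallothionein sum was 0.18 above vehicle on the log2 scale in Aconiti high and 0.24 in Aconiti medium, against 0.33 and 0.36 on TMM-scaled CPM. MT1X in Aconiti high against Bupleuri high was -0.08, and 0.02 without Bupleuri high replicate 1 (0.0227) or without Aconiti high replicate 1 (0.0172); the refits that left out a library ranged between -0.17 and 0.02. MT2A in Citri high against Citri medium was -0.39, and 0.02 (0.0203) without Citri medium replicate 1 and in the shared fit less that library, with a range of -0.57 to 0.02 over the refits that left out a library. The cause of these moves was not tested.

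With the replicate number as a block, 1 member result changed its call, MT2A in the dose change of Yijung less that of Aconiti (0.63, edgeR adjusted p = 0.0548), and no other call changed. DESeq2 and the robust fit changed no call. MT1E with 2 counts and MT1F with 15 to 66 counts a library limit what can be seen of those genes.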
